A study of Mus musculus with 12 samples.

Results

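The 45 genes described here make up a listed set of the lysosome and autophagy system: autophagy initiation and membrane supply, conjugation of ATG8 proteins, the ATG8 family with a cargo receptor, lysosomal membrane proteins and V-ATPase subunits, lysosomal hydrolases, the TFEB family, and the docking and upstream control of mTORC1. They were chosen by gene symbol from the array's annotation, 45 of the 18194 genes it names. Each gene was represented by the probe set with the highest mean over all arrays. All 45 had a probe set, and 44 passed the filter on dim signals, which kept a gene where at least 3 of 12 arrays had it above their median. Each of those 44 passed in all 12 arrays. The member that did not pass was Rragd.

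The samples came from BL#19, a Burkitt lymphoma line of the mouse modified by CRISPR/Cas9, and their RNA was read on 12 Affymetrix arrays. There were 3 arrays for each of 4 Foxo1 genotypes. Cells labelled wt-/mt- had lost both the wild type allele and the allele with the substitution T24P, wt-/mt+ cells had lost the wild type allele, wt+/mt- cells had lost the T24P allele, and wt+/mt+ cells had both. All 4 genotypes shared the background of this line, and no treatment was recorded for any of them. The labels also use the words germinal center B cells for these samples. Whether replicate arrays stem from independent clones or cultures is not stated, so p-values reflect array-to-array spread that may be technical, and a genotype may be 1 clone. Values are log2 levels per probe set as made by RMA. They were compared with limma in 1 fit over all 12 arrays, with 1 variance weight per genotype. A gene was called at an adjusted p under 0.05 over 11458 genes. Levels are compared between arrays for 1 probe set, and not between genes.

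The lysosome is an acidic compartment in which hydrolases break down proteins, lipids and sugars. A proton pump in its membrane, the V-ATPase, keeps it acidic. In autophagy, the ULK1 kinase starts the growth of a membrane around cell contents, ATG8 proteins such as LC3 are coupled to lipid in that membrane, and the closed vesicle fuses with the lysosome. The surface of the lysosome is also where amino acids switch on the kinase complex mTORC1 through the Rag GTPases and the LAMTOR complex. Active mTORC1 restrains ULK1 and keeps TFEB and TFE3, transcription factors of lysosomal genes, out of the nucleus. FOXO factors are known to act on several autophagy genes, and B cells use lysosomal proteases to process antigen for presentation.

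The E box that TFEB and TFE3 are known to bind, CACGTG, was searched in windows of 300 bases, 250 before and 50 after each start site (RefSeq, GRCm38.p6). Of the 45 members, 38 had a window. The E box stood in 16 of 42 member windows (38.1%) and in 7.15% of 32851 windows of all genes. The members with one were Atg14, Atg3, Atg5, Atg7, Lamp1, Mcoln1, Atp6v0d1, Atp6v1a, Ctsa, Ctsd, Ctsl, Gla, Fnip1, Rragc, Lamtor1 and Rheb. CACGTG is its own reverse complement, so 1 reading covers both strands. The longer CLEAR palindrome, which contains the E box, was in 0 of 42 member windows and in 0.326% of all windows. A forkhead motif, GTAAACA, read on both strands, was in 0 of 42 member windows and in 3.65% of all. Matches and their absence describe these windows only. The stretches around the E boxes of the 4 members of the lysosomal membrane and V-ATPase group that hold one are printed because that group had the lowest median change after loss of both alleles. Capitals mark the E box, and each sequence is read 5′ to 3′ on the strand of its gene.
Atp6v0d1, chr8:105566045-105566084, minus strand: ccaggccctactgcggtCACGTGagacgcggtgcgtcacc
Atp6v1a, chr16:44139368-44139407, minus strand: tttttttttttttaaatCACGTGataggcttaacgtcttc
Lamp1, chr8:13159083-13159168, plus strand: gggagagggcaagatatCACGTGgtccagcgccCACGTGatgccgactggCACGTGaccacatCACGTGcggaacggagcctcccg
Mcoln1, chr8:3500431-3500496, plus strand: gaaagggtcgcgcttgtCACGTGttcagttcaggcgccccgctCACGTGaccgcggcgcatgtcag
Of the 6 members that fell after loss of both alleles, 4 had a window (Ulk1, Atp6v0d1, Ctss and Neu1), and 1 of these, Atp6v0d1, held the E box. No level of TFEB or TFE3 binding was measured.

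The edited gene was read first. Foxo1 had 10.23, 9.39 and 10.34 in wt-/mt- cells, 11.57, 11.16 and 11.64 in wt-/mt+ cells, 12.10, 11.92 and 11.59 in wt+/mt- cells, and 11.56, 11.63 and 11.72 in wt+/mt+ cells. Its transcript was low in all 3 arrays without either allele. The change was -1.65 in wt-/mt- against wt+/mt+ (SE 0.28, limma adjusted p = 0.00473), -0.18 in wt-/mt+ (SE 0.14, adjusted p = 0.573) and 0.24 in wt+/mt- (SE 0.16, adjusted p = 0.363) against the same cells. The position of the probe set relative to the edits is not given, so the levels of the single losses do not check those labels.

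The arrays differed in spread. The median SD over genes was 0.261 in wt-/mt- cells, 0.111 in wt-/mt+ cells, 0.133 in wt+/mt- cells and 0.0952 in wt+/mt+ cells. The log2 ratio of the 3′ to the 5′ probe set of actin, a sign of RNA quality, was 2.17 and 1.71 on wt+/mt- replicates 1 and 2, against 1.06 to 1.29 on the other 10 arrays. The control RNA bioC, added during array preparation, had 11.61 to 11.80 on arrays with the T24P allele and 10.85 to 11.35 on those without it. For cre, another such control, these ranges were 15.20 to 15.25 and 14.95 to 15.09. Loss of the T24P allele and this difference between arrays coincide and cannot be told apart. Its part in comparisons of genotypes with and without that allele was not tested. B cell markers were bright throughout: between 8 and 9 of the 9 on the array lay above the median on each. Of 18 myeloid markers, 7 to 8 lay above it in wt-/mt- cells, 5 in wt-/mt+ cells, 6 to 7 in wt+/mt- cells and 5 to 6 in wt+/mt+ cells. Their summed level was 12.50 to 14.23 in wt-/mt- cells, 10.61 to 11.35 in wt-/mt+ cells, 10.66 to 11.67 in wt+/mt- cells and 10.93 to 11.12 in wt+/mt+ cells. The myeloid markers called higher in wt-/mt- against wt+/mt+ were Mpeg1 (3.76, SE 0.53, limma adjusted p = 0.00156) and Cybb (3.66, SE 0.47, adjusted p = 0.000922). Cd14, Lyz1, Lyz2, Itgam, S100a8, S100a9, Mpo, Elane, Siglech and Clec4d were above the median in 0 arrays. By mean level, Slc11a1 held the largest share of the summed myeloid level in both genotypes. It averaged 12.68 ± 0.76 in wt-/mt- and 10.05 ± 0.14 in wt+/mt+ cells (SD, n = 3 each) and was not called (limma adjusted p = 0.0664). Cd68, with 8.04 ± 1.31 and 6.11 ± 0.40 in those genotypes, was not called (adjusted p = 0.0654). Adgre1 (-0.38), Csf1r (0.05) and Fcgr1 (0.30, adjusted p = 0.287) were above the median in all 12 arrays and were not called either. Of the B cell markers, Blk (-1.87), Cd79b (-0.96) and Vpreb3 (-0.86) fell in wt-/mt- against wt+/mt+. All 9 had a change below 0 there, with a median of -0.71. The summed level of the B cell markers was 15.47 to 15.98 in wt-/mt- and 16.16 to 16.22 in wt+/mt+ cells. It was 16.03 to 16.18 in wt-/mt+ and 15.98 to 16.12 in wt+/mt- cells. T and NK cell markers had 3 of 8, and stromal and erythroid markers 0 to 3 of 7, above the median. In bulk RNA, fewer cells of a type and less RNA per cell cannot be told apart. The part of these marker changes in the results on lysosomal genes was not tested.

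In cells without either Foxo1 allele, 6 members fell and 1 rose relative to wt+/mt+ cells. The falls were in Neu1, a lysosomal sialidase, Ctss, the protease that trims the invariant chain in antigen presentation, Ulk1, Map1lc3a, and the V-ATPase subunits Atp6v0d1 and Atp6v1h, by 1.62-fold to 2.33-fold. The rise was in Tfe3, by 1.60-fold. The rise of 1 of 44 tested members stood against a background of 2.76% of 11458 genes called higher, and the fall of 6 of 44 against a background of 4.8% called lower. The median change over members was -0.30, and over all genes 0.05. The change was below 0 for 35 of 44 members and for 44.6% of all genes. An unadjusted p under 0.05 was found for 18 members and for 2926 of 11458 genes. The count of calls was 3 without wt-/mt- replicate 1 and 4 without wt-/mt- replicate 2, and 16 with a single variance for all genotypes. The backgrounds above belong to the main fit. The share of all genes called in the other fits is not given here, so these counts cannot be set against it.

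**Figure D1:**
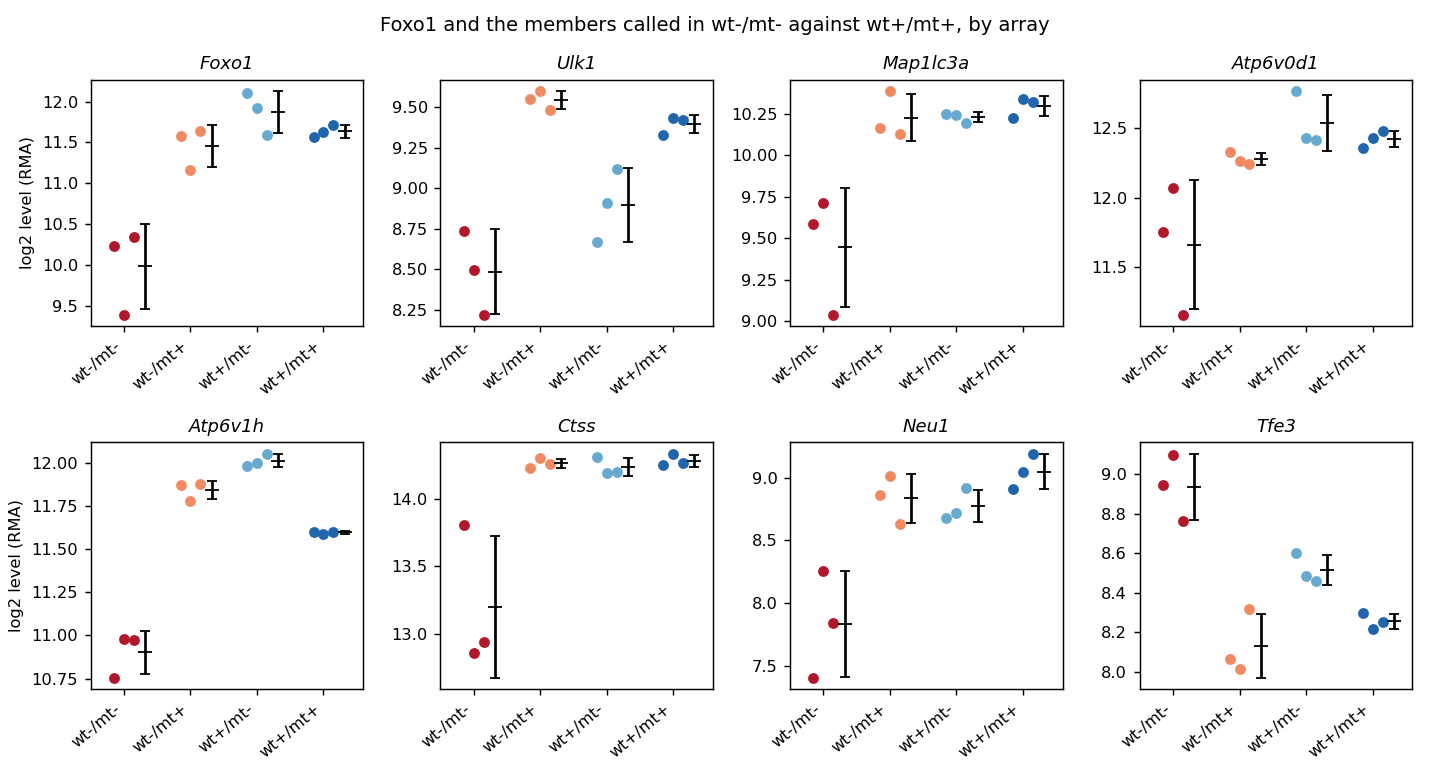
Log2 level (RMA) of Foxo1 and of the 7 members called in wt-/mt- against wt+/mt+ cells, by genotype. Coloured points are the 3 arrays of a genotype, and the black mark and bar are their mean and SD. For Foxo1, Map1lc3a, Atp6v0d1, Atp6v1h, Ctss and Neu1 the 3 wt-/mt- arrays lie below all others, and for Tfe3 above all others, while Ulk1 is also low in wt+/mt- cells.

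Ulk1, the kinase that starts autophagy, had 8.74, 8.50 and 8.22 in wt-/mt- cells, 9.55, 9.60 and 9.49 in wt-/mt+ cells, 8.67, 8.91 and 9.12 in wt+/mt- cells, and 9.33, 9.43 and 9.42 in wt+/mt+ cells. Levels were low in both genotypes without the T24P allele, which also had the lower levels of the control RNA bioC. The wt-/mt- and wt+/mt- arrays overlapped. The change was -0.91 in wt-/mt- (SE 0.18, limma adjusted p = 0.0111) and -0.50 in wt+/mt- (adjusted p = 0.0174), both against wt+/mt+, and -1.06 in wt-/mt- against wt-/mt+ (adjusted p = 0.00518). A second, dimmer probe set of Ulk1 gave -0.23 in wt-/mt- (adjusted p = 0.477) and -0.02 in wt+/mt- (adjusted p = 0.915), both against wt+/mt+. The call against wt+/mt+ ended for wt-/mt- without replicate 2, and for wt+/mt- without replicate 1 or 2 of that genotype and without wt+/mt+ replicate 2.

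Of the 7 members of initiation and membrane supply, Ulk1 was the 1 that fell in wt-/mt- against wt+/mt+ (background 4.8%), and 0 rose (2.76%). The median change of the group was -0.08. Atg14, which directs the lipid kinase complex to the forming membrane, had 7.02, 7.24 and 7.17 in wt-/mt- cells, 7.01, 6.87 and 7.07 in wt-/mt+ cells, 7.22, 7.25 and 7.24 in wt+/mt- cells, and 6.63, 6.93 and 6.89 in wt+/mt+ cells. All 3 wt+/mt- arrays lay above the 3 of wt+/mt+. Atg14 rose by 0.42 in wt+/mt- against wt+/mt+ (limma adjusted p = 0.0298), and its change in wt-/mt- was 0.33 (SE 0.18, adjusted p = 0.28). Wipi2, which binds the lipid mark of the forming membrane, had a change of -0.64 (adjusted p = 0.113) in wt-/mt- against wt+/mt+. Ulk2, Becn1, Atg9a and Wipi1 had changes between -0.20 and 0.04.

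Of the 6 genes of ATG8 conjugation, 0 were called by limma in wt-/mt- against wt+/mt+. An unadjusted p under 0.05 was found for 2 of them and for 2926 of 11458 genes. The median change of the 6 was -0.11, with a range of -0.44 to 0.08. The lowest was Atg16l1, part of the ligase that places ATG8 proteins on the membrane, at -0.44 (limma adjusted p = 0.0826). Atg7, the enzyme that activates ATG8 proteins, had 8.18, 9.07 and 8.62 in wt-/mt- cells, 8.58, 8.45 and 8.51 in wt-/mt+ cells, 8.85, 9.06 and 9.11 in wt+/mt- cells, and 8.55, 8.69 and 8.88 in wt+/mt+ cells. The wt-/mt- arrays ran from below the other 9 into their range. Atg7 was lower in wt-/mt+ than in wt+/mt- cells by a change of -0.50 (adjusted p = 0.0383).

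Map1lc3a encodes LC3A, an ATG8 protein of the autophagosome. Its levels were 9.59, 9.71 and 9.04 in wt-/mt- cells, 10.16, 10.39 and 10.12 in wt-/mt+ cells, 10.25, 10.24 and 10.20 in wt+/mt- cells, and 10.22, 10.34 and 10.32 in wt+/mt+ cells. Every wt-/mt- array lay below the other 9. Map1lc3a fell by 0.85 against wt+/mt+ (SE 0.18, limma adjusted p = 0.0134), by 0.78 against wt+/mt- (adjusted p = 0.0404) and by 0.78 against wt-/mt+ (adjusted p = 0.0202). The second probe set gave -0.52 (adjusted p = 0.218) against wt+/mt+, and the call there ended without wt-/mt- replicate 3. Against wt+/mt- the call ended under 11 of 21 alternatives. The chosen probe set is of a kind (suffix x_at) that can bind other transcripts.

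Map1lc3b, which encodes LC3B, had 11.50, 11.82 and 11.85 in wt-/mt- cells, 12.13, 12.18 and 11.94 in wt-/mt+ cells, 11.80, 11.55 and 11.68 in wt+/mt- cells, and 12.17, 12.08 and 12.18 in wt+/mt+ cells. On this probe set all arrays without the T24P allele lay below all arrays with it, as they did for the control RNA bioC. The change was -0.47 in wt+/mt- (limma adjusted p = 0.0168) and -0.42 in wt-/mt- (SE 0.17, adjusted p = 0.142), both against wt+/mt+, and wt-/mt+ exceeded wt+/mt- by 0.41 (adjusted p = 0.0339). Its 3 other bright probe sets gave -0.26, -0.11 and 0.13 in wt+/mt- against wt+/mt+ and 0.07, 0.02 and -0.06 in wt-/mt+ against wt+/mt-, none called, and the mean of its bright probe sets ended both calls. Gabarapl2, another ATG8 protein, had 11.44, 11.56 and 11.23 in wt-/mt- cells, 11.73, 11.95 and 11.70 in wt-/mt+ cells, 10.82, 11.29 and 11.56 in wt+/mt- cells, and 11.63, 11.53 and 11.71 in wt+/mt+ cells. Its lowest value was on wt+/mt- replicate 1, the array with the highest actin ratio. It was higher in wt-/mt+ than in wt+/mt- cells by 0.57 (adjusted p = 0.0404). That call ended under 12 of 21 alternatives, and a second bright probe set gave -0.05 (adjusted p = 0.806).

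Sqstm1 encodes p62, the receptor that links ubiquitinated cargo to ATG8 proteins. It had 10.48, 11.01 and 10.84 in wt-/mt- cells, 10.71, 10.95 and 10.87 in wt-/mt+ cells, 10.53, 10.91 and 11.05 in wt+/mt- cells, and 10.80, 10.85 and 10.95 in wt+/mt+ cells. The 4 genotypes overlapped, and the change in wt-/mt- against wt+/mt+ was -0.09 (SE 0.21, limma adjusted p = 0.82). It was 0.059 without wt-/mt- replicate 1, and a second probe set gave -0.72. Of the 6 members of this family group, 1 fell (background 4.8%) and 0 rose (2.76%) in wt-/mt- against wt+/mt+, with a median change of -0.25.

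The lysosomal membrane and V-ATPase group had the lowest median change of the 7 groups in wt-/mt- against wt+/mt+, at -0.56. In it 2 of 6 members fell, with a background of 4.8%. Atp6v1h, a regulatory subunit of the part of the pump that hydrolyses ATP, had 10.76, 10.98 and 10.97 in wt-/mt- cells, 11.87, 11.78 and 11.88 in wt-/mt+ cells, 11.98, 12.00 and 12.05 in wt+/mt- cells, and 11.60, 11.59 and 11.60 in wt+/mt+ cells. On this probe set the 4 genotypes did not overlap: both single losses lay above wt+/mt+ and the loss of both alleles below it. Atp6v1h fell by 0.69 in wt-/mt- against wt+/mt+ (SE 0.12, limma adjusted p = 0.00636), by 1.11 against wt+/mt- (adjusted p = 0.000947) and by 0.94 against wt-/mt+ (adjusted p = 0.00104). It rose by 0.42 in wt+/mt- against wt+/mt+ (adjusted p = 0.00948), and its change in wt-/mt+ was 0.25 (adjusted p = 0.144). A second, dimmer probe set gave -0.80 in wt-/mt- against wt+/mt+ (adjusted p = 0.0296), with both single losses below wt+/mt+, at -0.19 in wt-/mt+ (adjusted p = 0.414) and -0.08 in wt+/mt- (adjusted p = 0.697). The fall against wt+/mt+ was not called without wt-/mt- replicate 1, at an adjusted p of 0.0546.

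Atp6v0d1, a subunit of the membrane part of the pump, had 11.75, 12.07 and 11.16 in wt-/mt- cells, 12.33, 12.27 and 12.24 in wt-/mt+ cells, 12.77, 12.43 and 12.41 in wt+/mt- cells, and 12.36, 12.43 and 12.48 in wt+/mt+ cells. All wt-/mt- arrays were below the other 9. It fell by 0.76 against wt+/mt+ (SE 0.20, limma adjusted p = 0.0364) and by 0.88 against wt+/mt- (adjusted p = 0.041), and its change against wt-/mt+ was -0.62 (adjusted p = 0.0811). Leaving out any 1 of the wt-/mt- arrays, or wt+/mt+ replicate 2 or 3, ended the call against wt+/mt+. So did quantile normalizing the arrays again, and fitting only the genotypes compared. The call against wt+/mt- ended under 13 of 21 alternatives.

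Atp6v1a, the catalytic subunit, had 10.83, 10.94 and 11.06 in wt-/mt- cells, 11.18, 11.30 and 11.13 in wt-/mt+ cells, 11.31, 11.15 and 11.22 in wt+/mt- cells, and 10.93, 10.96 and 10.93 in wt+/mt+ cells. On this probe set both single losses lay above the other genotypes. It rose by 0.29 in wt+/mt- against wt+/mt+ (limma adjusted p = 0.0403) and its change in wt-/mt- was 0.00 (SE 0.14, adjusted p = 0.989). The call in wt+/mt- ended under 13 of 21 alternatives. The 2 bright probe sets of this gene disagreed, the second giving -0.96 in wt-/mt- (adjusted p = 0.0175) and 0.04 in wt+/mt- (adjusted p = 0.87), both against wt+/mt+.

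Lamp1, an abundant glycoprotein of the lysosomal membrane, had 12.21, 12.56 and 11.96 in wt-/mt- cells, 12.60, 12.44 and 12.64 in wt-/mt+ cells, 13.01, 12.90 and 12.64 in wt+/mt- cells, and 12.76, 12.78 and 12.72 in wt+/mt+ cells. All wt-/mt- arrays lay below those of wt+/mt+, and the change was -0.51 (SE 0.18, limma adjusted p = 0.106). Lamp2, its relative, had a change of -0.48 (adjusted p = 0.161) and 4 bright probe sets between -0.91 and -0.23. Of these, 1 was called lower, the one at -0.91 (adjusted p = 0.00966). Mcoln1, the calcium channel of the lysosome, had 9.18, 9.22 and 7.93 in wt-/mt- cells, against 9.36 to 9.41 over the 3 wt+/mt+ arrays. Its change of -0.61 (adjusted p = 0.105) came with a low value on wt-/mt- replicate 3, and its 3 bright probe sets lay between -0.85 and -0.35. The one at -0.85 was called lower (adjusted p = 0.0317).

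Ctss had 13.80, 12.86 and 12.95 in wt-/mt- cells, 14.23, 14.30 and 14.25 in wt-/mt+ cells, 14.31, 14.19 and 14.20 in wt+/mt- cells, and 14.25, 14.33 and 14.26 in wt+/mt+ cells. The 9 arrays with at least 1 allele stayed within 14.19 to 14.33, and the 3 without one were below them. Ctss fell by 1.08 against wt+/mt+ (SE 0.18, limma adjusted p = 0.00449), by 1.03 against wt+/mt- (adjusted p = 0.0115) and by 1.06 against wt-/mt+ (adjusted p = 0.00496). The call against wt+/mt+ held under all 21 alternatives tried, with adjusted p values from 0.00144 to 0.0497.

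Neu1, which removes sialic acid from glycoproteins, had 7.40, 8.26 and 7.84 in wt-/mt- cells, 8.86, 9.02 and 8.63 in wt-/mt+ cells, 8.68, 8.72 and 8.92 in wt+/mt- cells, and 8.91, 9.05 and 9.19 in wt+/mt+ cells. All wt-/mt- arrays lay below the other 9. It fell by 1.22 against wt+/mt+ (SE 0.23, limma adjusted p = 0.00869) and by 1.00 against wt-/mt+ (adjusted p = 0.0223), and its change against wt+/mt- was -0.94 (adjusted p = 0.0575). The second bright probe set gave -1.26 against wt+/mt+ (adjusted p = 0.0141). Without wt-/mt- replicate 1 the call against wt+/mt+ ended, at an adjusted p of 0.0735.

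Among the 9 hydrolases, 2 fell (background 4.8%) and 0 rose (2.76%) in wt-/mt- against wt+/mt+, with a median change of -0.37. Ctsb, a cysteine protease, had 10.57, 11.01 and 10.98 in wt-/mt- cells, 10.42, 10.37 and 10.27 in wt-/mt+ cells, 10.95, 10.92 and 10.79 in wt+/mt- cells, and 10.49, 10.63 and 10.65 in wt+/mt+ cells. Its wt-/mt+ arrays were the lowest, and it was lower in wt-/mt+ than in wt+/mt- cells, with a change of -0.53 (limma adjusted p = 0.0111). Ctsa, which protects Neu1 in a shared complex, had 9.36, 9.87 and 10.02 in wt-/mt- cells, 9.97, 9.92 and 9.98 in wt-/mt+ cells, 10.77, 10.41 and 10.17 in wt+/mt- cells, and 10.22, 10.29 and 10.38 in wt+/mt+ cells. All wt-/mt- arrays were below those of wt+/mt+, where the change was -0.55 (SE 0.22, adjusted p = 0.142). It was lower in wt-/mt+ than in wt+/mt- cells by a change of -0.49 (adjusted p = 0.0426), a call that ended under 13 of 21 alternatives. Bright probe sets of Ctsa and of Ctsb differed in sign in wt-/mt- against wt+/mt+, from -0.55 to 0.28 for Ctsa and from -0.33 to 0.45 for Ctsb.

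Ctsd, the aspartic protease of the lysosome, had 9.62, 9.90 and 9.84 in wt-/mt- cells, 9.79, 9.79 and 9.77 in wt-/mt+ cells, 9.84, 9.88 and 9.71 in wt+/mt- cells, and 9.86, 9.91 and 10.06 in wt+/mt+ cells. Its change in wt-/mt- against wt+/mt+ was -0.16 (SE 0.15, limma adjusted p = 0.529). Ctsz, another cathepsin, had a change of -0.47 (adjusted p = 0.0984), and Gla, the alpha-galactosidase, one of -0.03. Other bright probe sets of Ctsz gave -0.62, which was called (adjusted p = 0.0165), and -0.38 (adjusted p = 0.218). Ctsl and Hexa spread too widely within wt-/mt- cells to be read as a mean. Ctsl, a cysteine protease, had 11.36, 13.24 and 12.19 there, on both sides of its wt+/mt+ levels of 12.58, 12.60 and 12.70. Hexa, a subunit of the hexosaminidase that degrades gangliosides, had 10.32, 10.46 and 7.07 in wt-/mt- cells, 9.58, 9.71 and 7.89 in wt-/mt+ cells, 10.75, 10.32 and 7.37 in wt+/mt- cells, and 9.52, 9.81 and 9.62 in wt+/mt+ cells. The low arrays were replicate 3 of the 3 genotypes that lack an allele, and Hexa had 1 probe set. Replicate numbers follow the order of arrays within each genotype, and the labels do not link them between genotypes.

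**Figure D2:**
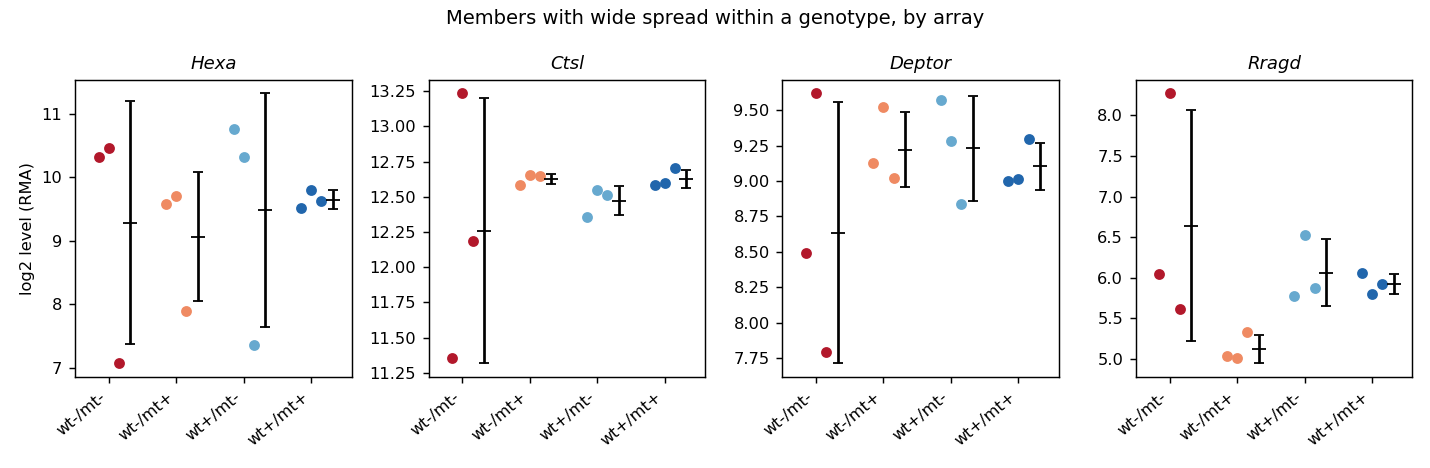
Log2 level (RMA) of Hexa, Ctsl, Deptor and Rragd by genotype, with the 3 arrays as coloured points and their mean and SD in black. Hexa is low on replicate 3 of wt-/mt-, wt-/mt+ and wt+/mt-, and Rragd reaches 8.27 on wt-/mt- replicate 2 alone.

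Tfe3 and Tfeb are related factors that switch on lysosomal genes when they reach the nucleus. Tfe3 had 8.94, 9.10 and 8.76 in wt-/mt- cells, 8.07, 8.02 and 8.32 in wt-/mt+ cells, 8.60, 8.49 and 8.46 in wt+/mt- cells, and 8.30, 8.22 and 8.25 in wt+/mt+ cells. The 3 wt-/mt- arrays were above the other 9, and those of wt+/mt- came next. Tfe3 rose by 0.68 in wt-/mt- against wt+/mt+ (SE 0.17, limma adjusted p = 0.0278) and by 0.80 against wt-/mt+ (adjusted p = 0.0131), and its change against wt+/mt- was 0.42 (adjusted p = 0.21). It was lower in wt-/mt+ than in wt+/mt- cells by a change of -0.38 (adjusted p = 0.0394). The rise against wt+/mt+ was not called without wt-/mt- replicate 1 or 2, or without wt+/mt+ replicate 2. Nor was it called with the arrays quantile normalized again.

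Tfeb had 9.40, 9.29 and 9.17 in wt-/mt- cells, 9.38, 9.19 and 8.95 in wt-/mt+ cells, 9.69, 9.56 and 9.49 in wt+/mt- cells, and 9.26, 9.46 and 9.38 in wt+/mt+ cells. The wt+/mt- arrays were the highest. Its change was -0.08 in wt-/mt- against wt+/mt+ (SE 0.20, limma adjusted p = 0.823) and -0.40 in wt-/mt+ against wt+/mt- (adjusted p = 0.0571). Transcript levels do not show where either factor lies in the cell.

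Of the 8 tested genes of mTORC1 docking and upstream control, 0 were called by limma in wt-/mt- against wt+/mt+. An unadjusted p under 0.05 was found for 2 of them and for 2926 of 11458 genes. The median change of the 8 was -0.34, with a range of -0.62 to 0.20. Flcn, which acts on the Rag GTPases to let mTORC1 reach TFEB and TFE3, had a change of -0.62 (limma adjusted p = 0.114), and its partner Fnip1 one of -0.36. Other bright probe sets of Fnip1 gave -0.53, which was called (adjusted p = 0.0362), and -0.35 (adjusted p = 0.501). Lamtor1, the anchor of the docking complex, had -0.39, Rragc, a Rag GTPase, -0.18, and Rheb, the GTPase that activates mTORC1, 0.01. Tsc1 and Tsc2, which together switch Rheb off, had -0.33 and 0.20. Deptor, an inhibitor that binds mTOR, had 8.49, 9.62 and 7.79 in wt-/mt- cells, 9.13, 9.52 and 9.02 in wt-/mt+ cells, 9.57, 9.28 and 8.84 in wt+/mt- cells, and 9.00, 9.01 and 9.30 in wt+/mt+ cells. The wt-/mt- arrays spanned the range of all others, and the change was -0.47 (SE 0.38, adjusted p = 0.459). Rragd, the untested member, had 6.05, 8.27 and 5.61 in wt-/mt- cells, against 6.05, 5.80 and 5.92 in wt+/mt+ cells.

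**Figure D3:**
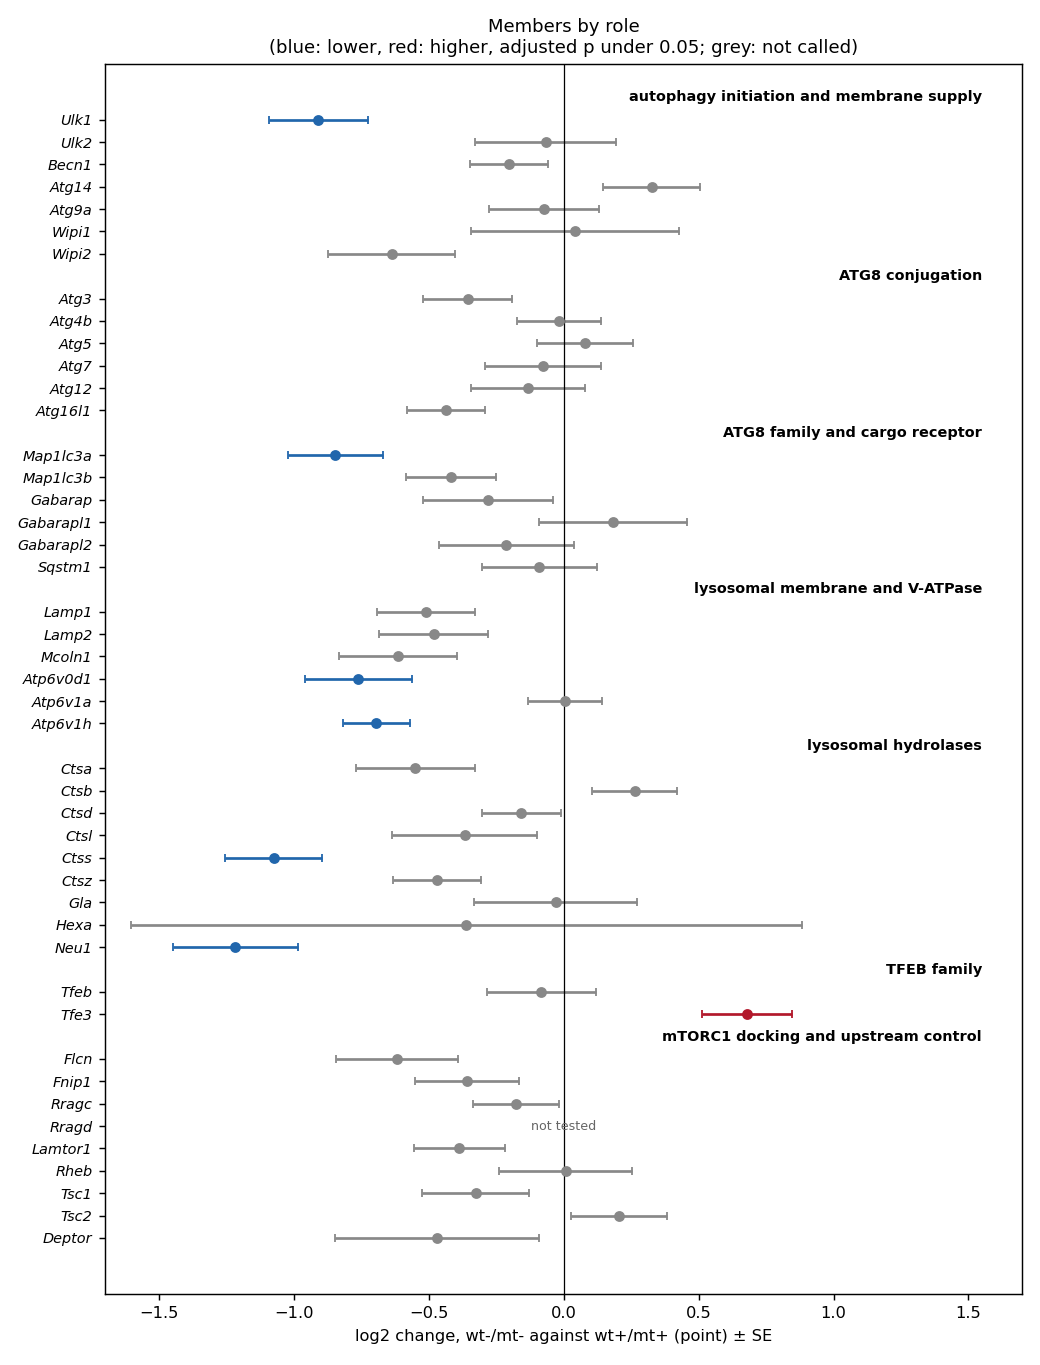
Log2 change in wt-/mt- against wt+/mt+ cells for the 45 members, grouped by role from top to bottom. Points are limma estimates, bars their SE, blue and red mark members called lower and higher, and grey those not called. Of 44 points, 35 lie below 0, 6 of them called, and Tfe3 is the 1 called above it.

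Members differed in how much they spread within genotypes. The SD was widest in wt-/mt- cells for 36 of 44 members, in wt-/mt+ cells for 4, in wt+/mt- cells for 2 and in wt+/mt+ cells for 2. The median SD over members was 0.281 in wt-/mt- cells, 0.116 in wt-/mt+ cells, 0.116 in wt+/mt- cells and 0.0814 in wt+/mt+ cells. Gabarapl1, an ATG8 protein, had 9.56, 10.92 and 9.90 in wt-/mt- cells, against 9.73, 10.08 and 10.03 in wt+/mt+ cells. High values of Ctsl, Deptor, Gabarapl1 and Rragd all fell on wt-/mt- replicate 2.

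**Figure D4:**
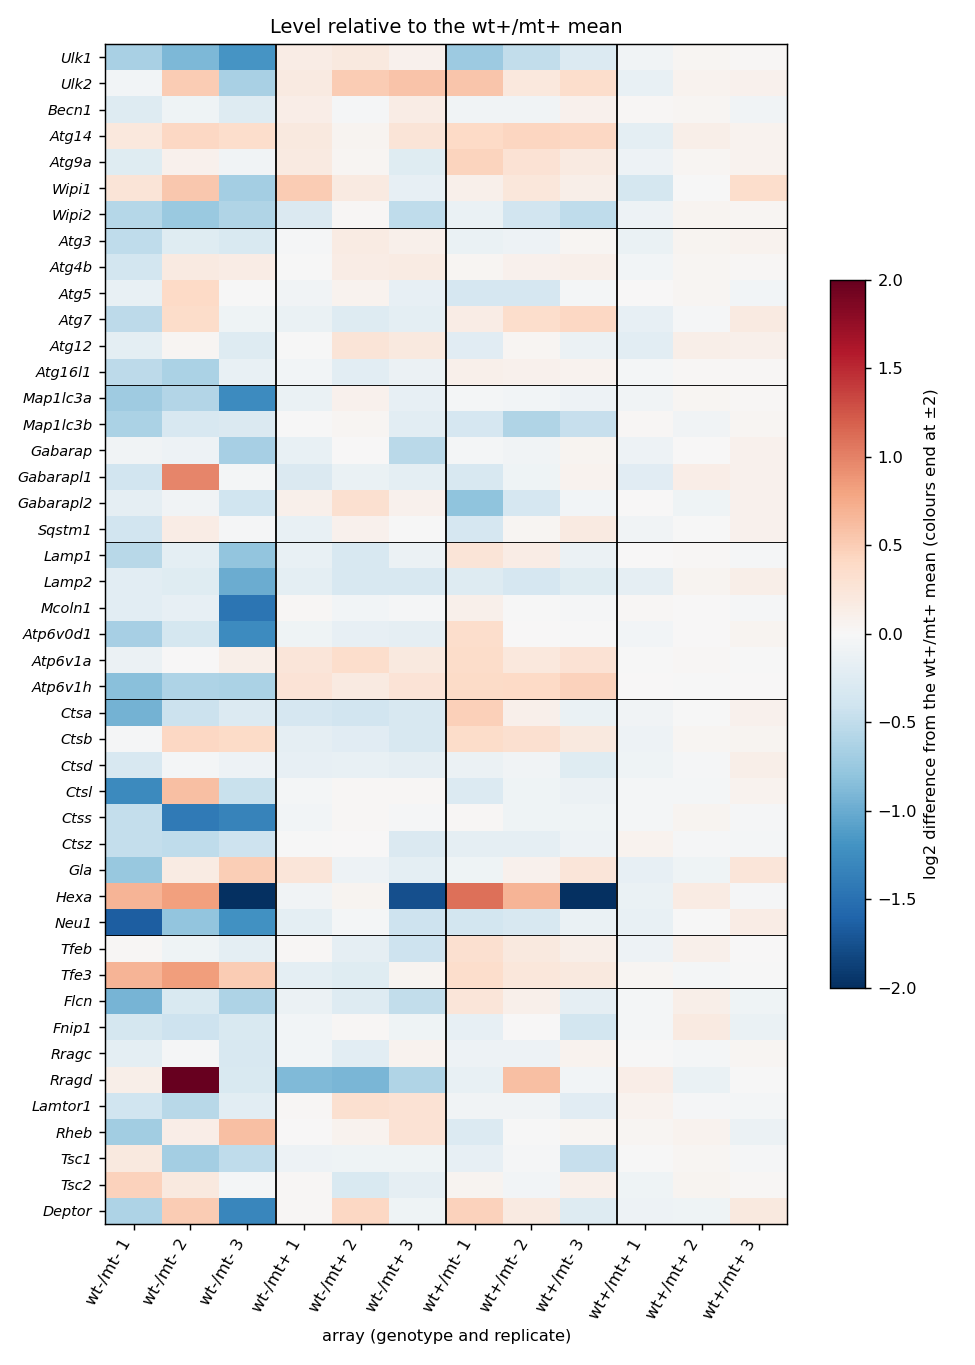
Log2 difference of each of the 45 members (rows, by role) from its wt+/mt+ mean on each of the 12 arrays (columns), with blue for lower and red for higher and colours ending at ±2. The wt-/mt- columns are the most coloured and differ among themselves, and the Hexa row is dark blue on replicate 3 of wt-/mt-, wt-/mt+ and wt+/mt-.

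Most members with several probe sets gave 1 sign. Of 29 members with more than 1 bright probe set, 23 had all of them on the same side of 0 in wt-/mt- against wt+/mt+. Over all 95 bright member probe sets 14 were called, 13 of them lower, against 8.28% of 20302 bright probe sets of all genes.

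The loss of the T24P allele from cells that keep the wild type one, which is wt+/mt- against wt+/mt+, gave 5 called members: Atp6v1h, Atp6v1a and Atg14 rose, and Ulk1 and Map1lc3b fell. That is 3 of 44 higher, with a background of 5.93%, and 2 lower, with a background of 2.37%. The median change over members was -0.03, against 0.04 over all genes. The count moved with the wt+/mt- arrays: limma called 0 members without replicate 2, 2 without replicate 1 and 8 without replicate 3. With a single variance limma called 0. At an unadjusted p under 0.05 these counts of 0 were 9 without replicate 2 and 10 with a single variance. In the main fit 14 members and 2975 of 11458 genes had such a p. The share of all genes in the other fits is not given here. Replicates 1 and 2 had the high actin ratios. Leaving out both leaves 1 wt+/mt- array and no spread, so that fit cannot show whether the calls depend on them.

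The loss of the wild type allele from cells that keep T24P (wt-/mt+ against wt+/mt+) gave 0 called members by limma. An unadjusted p under 0.05 was found for 11 of 44 members and for 1672 of 11458 genes. The background was 0.105% higher and 0.0611% lower, 19 genes in all, and 0 members were called by limma in any alternative run for this comparison.

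The 2 single losses were also set against each other. In wt-/mt+ against wt+/mt- cells 7 members were called. Ulk1, Map1lc3b and Gabarapl2 were higher (3 of 44, background 2.94%), and Atg7, Ctsa, Ctsb and Tfe3 were lower (4 of 44, background 4.35%). Of the other bright probe sets of these members, 0 were called by limma there: Ulk1 gave 0.14, Atg7 -0.24 and -0.17, Ctsa -0.07, and Ctsb -0.42 to -0.01. The limma count was 0 without wt+/mt- replicate 2 (9 at an unadjusted p under 0.05), 10 without replicate 3, and 0 with a single variance (11). In the main fit 16 of 44 members and 3156 of 11458 genes had an unadjusted p under 0.05. The share of all genes in the other fits is not given here.

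Cells without either allele were compared with each single loss as well. These comparisons share the wt-/mt- arrays with the one against wt+/mt+. Against wt+/mt- cells, 4 members fell (Map1lc3a, Atp6v0d1, Atp6v1h and Ctss; background 2.65%) and 0 rose (background 0.829%), with a median of -0.24 over members and -0.01 over all genes. Against wt-/mt+ cells, 5 fell (Ulk1, Map1lc3a, Atp6v1h, Ctss and Neu1; background 5.27%) and Tfe3 rose (background 2.78%), with a median of -0.27 over members and 0.01 over all genes. Leaving out wt-/mt- replicate 1 gave 2 and 3 calls in these 2 comparisons. Leaving out both arrays of high actin ratio leaves 1 wt+/mt- array, so no count is given for that fit.

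Over the 4 genotypes, the F test called 11 of 44 members (25%), with a background of 13.4%: Ulk1, Map1lc3a, Map1lc3b, Atp6v0d1, Atp6v1a, Atp6v1h, Ctsa, Ctsb, Ctss, Neu1 and Tfe3. The count was 4 without wt+/mt- replicate 2 and 14 without wt+/mt- replicate 3. The interaction asks whether the loss of both alleles differs from the sum of the single losses. It was below 0 for Atp6v1h (-1.36, SE 0.14, limma adjusted p = 0.000774) and Ctss (-1.01, SE 0.21, adjusted p = 0.0238), 2 of 44 members with a background of 2.44% lower, and above 0 for 0 members with a background of 0.698%. The second probe set of Atp6v1h gave -0.52 (SE 0.23, adjusted p = 0.283). The interaction of Foxo1 itself was -1.71 (adjusted p = 0.0145). For Ulk1 it was -0.56 (adjusted p = 0.186) and for Neu1 -0.73 (adjusted p = 0.182).

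A further 4 lists held 135 other genes of the same system. These lists were chosen with earlier results of these data known, so they are no independent check. Of the 135 genes, 116 were tested. In wt-/mt- against wt+/mt+ cells 16 fell (background 4.8%) and 1 rose (background 2.76%), 14.7% of them in all, with a median change of -0.15. Against wt+/mt- cells 10 fell (background 2.65%) and 0 rose (0.829%), and against wt-/mt+ cells 17 fell (5.27%) and 3 rose (2.78%). In wt+/mt- against wt+/mt+ cells 2 rose (5.93%) and 5 fell (2.37%). In wt-/mt+ against wt+/mt+ cells 0 were called by limma (background 0.105% higher and 0.0611% lower). Unadjusted p values under 0.05 were seen for 11 of them there, and for 1672 of 11458 genes.

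**Figure D5:**
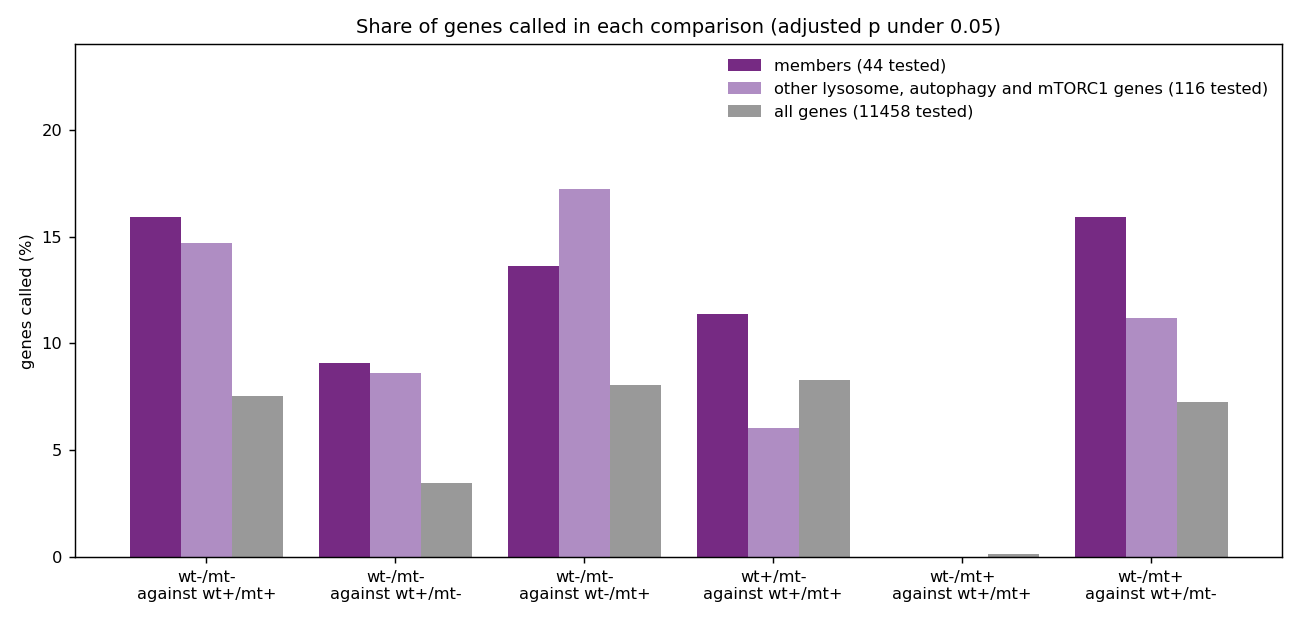
Percent of genes called at a limma adjusted p under 0.05 (y axis, from 0) among the 44 members, the 116 other lysosome, autophagy and mTORC1 genes and all 11458 genes, for 6 comparisons. In wt-/mt- against wt+/mt+ cells the bars stand at 15.9% for members and 14.7% for the other genes, and in wt-/mt+ against wt+/mt+ cells at 0 for both.

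Of 31 other autophagy genes, 7 fell and 0 rose in wt-/mt- against wt+/mt+, where 4.8% of all genes were called lower and 2.76% higher. The same background holds for the counts of the 3 lists that follow. Trp53inp1, a p53-induced protein that binds ATG8 proteins, averaged 9.67 ± 0.61 in wt-/mt- and 12.45 ± 0.03 in wt+/mt+ cells (SD, n = 3 each), a change of -2.78 (limma adjusted p = 4.3e-05). Atg4a, a protease that processes ATG8 proteins, averaged 9.97 ± 0.33 in wt-/mt- and 11.88 ± 0.11 in wt+/mt+ cells, a change of -1.90 (adjusted p = 9.6e-05). Rb1cc1, the scaffold of the ULK1 complex, changed by -1.38 (adjusted p = 0.00415) and Trp53inp2 by -1.03 (adjusted p = 0.00216), and Atg16l2, Bnip3 and Nrbf2 fell too.

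Among 34 other hydrolases and their cofactors, 4 fell and 1 rose. Acp5, an acid phosphatase, averaged 8.09 ± 0.48 in wt-/mt- and 9.82 ± 0.02 in wt+/mt+ cells, a change of -1.72 (limma adjusted p = 0.000451). Smpd1, the acid sphingomyelinase, changed by -0.90 (adjusted p = 0.0125), Ppt1, which removes palmitate from proteins, by -0.85 (adjusted p = 0.00869), and Tpp1, a peptidase, by -0.71 (adjusted p = 0.0324). Ppt2, a relative of Ppt1, rose by 0.51 (adjusted p = 0.0474).

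Of 26 other genes of the membrane and the V-ATPase, 3 fell and 0 rose. Mcoln2, a channel of the mucolipin family, averaged 6.52 ± 0.77 in wt-/mt- cells, 9.20 ± 0.31 in wt-/mt+ cells, 7.64 ± 0.59 in wt+/mt- cells and 9.11 ± 0.01 in wt+/mt+ cells. It changed by -2.59 in wt-/mt- against wt+/mt+ (limma adjusted p = 0.00419). Atp6v1d, a V-ATPase subunit, changed by -0.77 (adjusted p = 0.0091) and Scarb2, which carries glucocerebrosidase to lysosomes, by -0.69 (adjusted p = 0.0265). Of 25 other mTORC1 and TFEB control genes, 2 fell and 0 rose: Sesn1, a sestrin that restrains mTORC1, changed by -1.56 (adjusted p = 0.0147), and Rictor, a core subunit of mTORC2, changed by -0.59 (adjusted p = 0.0334).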

How the data were processed

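The deposited log2 values, 1 per probe set, are the output of RMA (version not given) according to the submitters' processing notes. RMA normalizes across arrays, so a shift shared by most genes is largely removed. The values ran from 3.09 to 15.57 and the array medians from 6.08 to 6.25, and 0 pairs of arrays were identical. Depth does not apply to arrays, and the number of arrays limits the precision.

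Of 45101 probe sets, 34958 had 1 gene in GEO's platform annotation, 932 had several and 9211 were not named. Tests used limma 3.58.1 under R 4.3.3 (lmFit, arrayWeights with 1 weight per genotype, eBayes), with Benjamini-Hochberg adjustment over 11458 genes. The variance of wt-/mt- was estimated at 8.62 times that of wt+/mt+. Errors of changes are SE, those of levels SD over 3 arrays.

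The members, roles and lists were chosen with earlier results of these data known. Per-array values are given for Foxo1, members called by the F test or in a pairwise comparison, and Tfeb, Tfe3, Ulk1, Sqstm1, Lamp1, Ctsd and Deptor, and up to 4 called genes are named per other list. Values of Wipi2, Atg16l1, Mcoln1, Lamp2, Ctsl, Ctsz, Gla, Hexa, Gabarapl1, Rragd and the other uncalled members account for the rest, and those given by array were chosen after they were seen. Alternatives were other weights, scalings, filters, probe set rules, the actin ratio, fewer genotypes and each array left out. Scanner files were not used here.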

Additional observations from a re-analysis of the deposited data

Results flagged for a closer look

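For 2 members the loss of one Foxo1 allele had a different effect where the other allele was missing, by the interaction term of the limma fit. That is 2 of 44 tested members, both below 0, with a background of 2.44% of 11458 genes. For Atp6v1h the interaction was -1.36 (adjusted p = 0.000774), with both single losses above wt+/mt+ and the double loss below it. It was called under all 20 alternatives that kept or averaged its probe sets. A second, dimmer probe set of Atp6v1h, read after seeing the data, had both single losses below wt+/mt+ as well, and its interaction was -0.52 (adjusted p = 0.283). For Ctss the interaction was -1.01 (adjusted p = 0.0238), with changes of -0.02 in wt-/mt+ and -0.05 in wt+/mt- against wt+/mt+. That call ended under 6 of 20 alternatives, where adjusted p reached 0.134: a single variance, centring within chromosomes, leaving out the arrays of high actin ratio, and leaving out wt-/mt- replicate 2, wt-/mt- replicate 3 or wt+/mt- replicate 2.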

How the results depend on the processing

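The counts here are of members, and the share of all genes called under each alternative is not given. They show how the calls move and cannot be set against a background. With a single variance for all genotypes, 16 members were called in wt-/mt- against wt+/mt+, 10 against wt+/mt-, 11 against wt-/mt+, 1 by the interaction, and 0 both in wt+/mt- against wt+/mt+ and in wt-/mt+ against wt+/mt-. The mean of a gene's bright probe sets gave 1 in wt+/mt- against wt+/mt+, 3 in wt-/mt+ against wt+/mt- and 7 by the F test. Leaving out both arrays of high actin ratio leaves 1 wt+/mt- array, so counts of calls from that fit are not given. The actin ratio as a covariate gave 2 in wt-/mt+ against wt+/mt- and 7 by the F test. Fitting only the genotypes compared gave 1 in wt-/mt- against wt+/mt-, 3 against wt-/mt+, and 3 each in wt+/mt- against wt+/mt+ and wt-/mt+ against wt+/mt-. Leaving out 1 array gave 3 to 7, 2 to 6 and 3 to 7 in wt-/mt- against wt+/mt+, wt+/mt- and wt-/mt+, 0 to 8 in wt+/mt- against wt+/mt+, 0 to 10 in wt-/mt+ against wt+/mt-, 1 to 2 by the interaction and 4 to 14 by the F test. Sqstm1 in wt-/mt- against wt+/mt+ turned to 0.059 without wt-/mt- replicate 1 (range over arrays left out -0.21 to 0.059). The cause of these moves was not tested. Calls of Ctss in wt-/mt- against wt+/mt+, Ulk1 against wt-/mt+ and Atp6v1h against both single losses held under the 21 alternatives that kept or averaged the probe sets. Ctss, Atp6v0d1 and Tfe3 have no second probe set, so averaging left their values unchanged and no other reading was available. No paired analysis was possible because the labels number the arrays without a number shared between genotypes. Readings from other bright probe sets were added after seeing the data. They ended the calls of Ulk1 against wt-/mt+ (-0.35) and of Atp6v1h against wt+/mt- (-0.71) and wt-/mt+ (-0.60). They turned the sign of Atp6v1h (-0.083) and Map1lc3b (0.13) in wt+/mt- against wt+/mt+, and of Map1lc3b (-0.059) and Gabarapl2 (-0.055) in wt-/mt+ against wt+/mt-.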
